A study of Homo sapiens with 12 samples.

Results

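The cytosolic ribosomal protein genes encode the proteins of the large and the small subunit of the ribosome that translates nuclear mRNAs. They were taken from the deposited gene table by symbol: RPL or RPS followed by a number and, where present, a suffix that marks a paralog, plus RPLP0, RPLP1, RPLP2 and RPSA, with pseudogenes left out. The rule found 84 of the 21439 genes in the table, 52 of the large and 32 of the small subunit. None was lost to the low-count filter, so all 84 were among the 17823 genes tested.

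RNA was sequenced in 12 libraries of DU145, a human line grown from a brain metastasis of prostate carcinoma, in 4 groups of 3. In siATF6 the cells received an siRNA against ATF6, a membrane-anchored transcription factor of the unfolded protein response, and in siCtrl a non-targeting control siRNA. Both groups were cultured for 24 h after transfection. In Ceapin the cells received 10 µM Ceapin-A7, a compound that holds ATF6 in the endoplasmic reticulum, and in DMSO its solvent, each for 12 h. All 12 cultures also received 30 nM thapsigargin, an inhibitor of the calcium pump of the endoplasmic reticulum, for 3 h before harvest, so every group, controls included, was under endoplasmic reticulum stress. The labels name 1 cell line and do not say whether the libraries of a group came from separate cultures. The p-values then measure the spread between these libraries, which may be technical.

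A ribosome holds one copy of nearly every ribosomal protein, and the large and small subunits are assembled on ribosomal RNA in the nucleolus with the help of many assembly factors. Most ribosomal protein mRNAs begin with a C followed by a run of pyrimidines, the 5′ terminal oligopyrimidine (TOP) tract, through which mTORC1 and the RNA-binding protein LARP1 set their translation and stability together. Ribosomal proteins that are not built into ribosomes are degraded. Some of them, above all RPL5 and RPL11 bound to 5S rRNA, bind the p53 ligase MDM2.

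Start sites show what the members have in common and where paralogs part. The windows below hold 10 bases before and 20 bases from an annotated RefSeq start (GRCh38.p14), with a C at the start and the pyrimidines after it in capitals where at least 4 follow. RPS27, RPL35A and RPL11 are shown because they are among the members that changed most after the siRNA, and RPS27L, RPL22, RPL22L1, RPL26 and RPL26L1 because they form paralog pairs.
RPS27: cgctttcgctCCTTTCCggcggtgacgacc
RPS27L: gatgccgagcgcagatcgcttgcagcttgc
RPL35A: gggcctcgtcCTTCTCTTaccgccatcttg
RPL11: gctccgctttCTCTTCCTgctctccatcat
RPL22: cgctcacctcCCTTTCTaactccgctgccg
RPL22L1: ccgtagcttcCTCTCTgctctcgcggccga
RPL26: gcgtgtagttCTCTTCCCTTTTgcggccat
RPL26L1: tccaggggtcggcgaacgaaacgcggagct
RPL26L1, second start: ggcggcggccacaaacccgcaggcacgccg
The windows lie at chr1:153990752-153990781 (plus strand), chr15:63157458-63157487 (minus), chr3:197950180-197950209 (plus), chr1:23691796-23691825 (plus), chr1:6199576-6199605 (minus), chr3:170870176-170870205 (minus), chr17:8383174-8383203 (minus), chr5:172958719-172958748 (plus) and chr5:172958870-172958899 (plus). A RefSeq start window was found for 67 members, and 47 of them (70.1%) had a tract exactly at an annotated start, against 7.06% of 11933 tested genes with a window. With the C allowed up to 5 bases to either side, 55 members (82.1%) and 29% of tested genes had one. The paralogs RPS27L and RPL26L1 were among the 12 members with neither, while RPS27 and RPL26 carried the tract at the start. RPL23 and RPL23A are named only.

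Stretches of mRNA around a short sequence are shown next, because several members that fell after the ATF6 siRNA hold it. The 7-base sequence GAGTCAT came from an earlier analysis of these same libraries, in which it was frequent in the mRNAs of genes that fell, so its presence here is a description and no independent evidence. The sense strand of coding sequence and 3′ UTR was searched in 1 representative transcript per gene (GENCODE v29, GRCh38). Capitals mark the 7-base match in RPL23, RPL35A and RPL4, and its 6-base part GAGTCA in RPS27, RPL32 and RPL34.
RPL23: gataatgcagGAGTCATagtgaacaataaa
RPL35A: aacaaaaccaGAGTCATctggggaaaagta
RPL4: cgaaaaggggGAGTCATctggcaaaaatgt
RPS27: aaagcactctGAGTCAagatgagtgggaaa
RPL32: ctggccatcaGAGTCAccaaccccaatgcc
RPL34: cacaagcacaGAGTCAgaaagctaaataaa
They lie at chr17:38850375-38850404 (minus strand), chr3:197954031-197954060 (plus), chr15:66503468-66503497 (minus), chr1:153992093-153992122 (plus), chr3:12836121-12836150 (minus) and chr4:108625184-108625213 (plus). All are in coding exons except that of RPS27, which is in the 3′ UTR.

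The libraries held from 17760878 to 19202632 counts. ATF6 itself averaged 25.8 ± 0.810 CPM (counts scaled by TMM to a common library size) in siATF6 and 125 ± 1.08 CPM in siCtrl (SD, n = 3 each), a log2 fold change of -2.27. It averaged 72.9 ± 1.91 CPM in Ceapin and 71.4 ± 1.99 CPM in DMSO (log2 fold change 0.03, edgeR adjusted p = 0.748). Between the control groups, ATF6 was lower in DMSO than in siCtrl (log2 fold change -0.80, edgeR adjusted p = 1.1e-20). A transfection field in the labels also names siRNAs for the Ceapin and DMSO libraries, against their titles. These ATF6 values are the measurement that bears on it, and the reason for the lower level in DMSO was not tested. All 5 epithelial markers (KRT8, KRT18, KRT19, EPCAM and CDH1) were present, and the androgen targets KLK2 and KLK3 were not among the rows. Of the 5 leukocyte markers PTPRC, CD3E and CD68 were also not among the rows, and those present summed to at most 1.04 CPM. The 3 endothelial markers summed to at most 2.70 CPM and the 5 fibroblast markers to at most 8.01 CPM. In RNA from whole cultures, fewer cells of a kind and less RNA per cell cannot be told apart.

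Ribosomal protein mRNAs made up between 2.72% and 3.31% of the counts of a library. Large-subunit genes held 1.79 ± 0.00414% in siATF6, 1.75 ± 0.0325% in siCtrl, 2.08 ± 0.00144% in Ceapin and 2.10 ± 0.0223% in DMSO (SD, n = 3 each). Small-subunit genes held 1.02 ± 0.00659% in siATF6, 1.02 ± 0.0177% in siCtrl, 1.17 ± 0.00750% in Ceapin and 1.19 ± 0.00871% in DMSO. Every library of the compound arm thus stood above every library of the siRNA arm for both subunits, while within each arm the groups lay close to each other. The ratio of large to small counts stayed between 1.71 and 1.79 in all 12 libraries. It was 1.73 to 1.76 in siATF6, against 1.71 to 1.72 in siCtrl, but this rested on RPS27. Without that gene, a calculation added after seeing the data, the ratio was 1.82 to 1.85 in siATF6, against 1.87 in every siCtrl library.

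**Figure D1:**
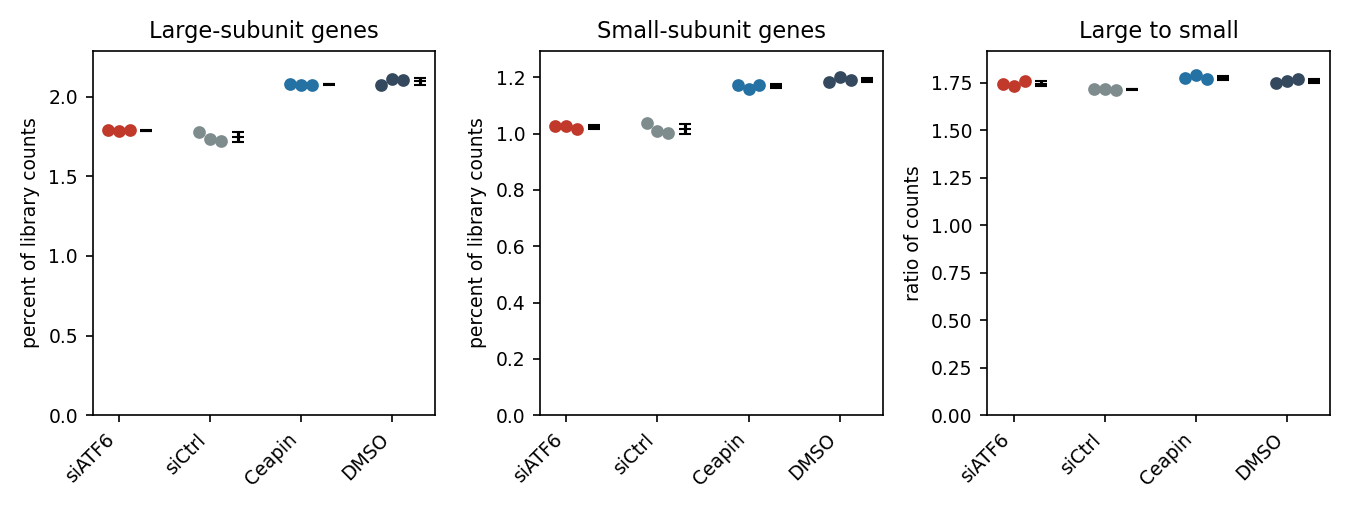
Percent of each library's counts held by the 52 large-subunit genes (left) and the 32 small-subunit genes (middle), and the ratio of large to small counts (right). Points are libraries and bars are mean ± SD of 3; the siRNA arm lies at 1.72% to 1.79% and the compound arm at 2.07% to 2.11% for the large subunit.

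The members spanned a wide range of levels. Per kilobase of coding sequence, the median member reached 661 CPM over all libraries, with medians of 649 for the large and 669 for the small subunit. RPL41, whose protein is a short basic peptide of the large subunit, led at 5246 CPM per coding kilobase, followed by RPS27 at 3406 and RPL37 at 2790.5. Very short coding sequences raise this measure, because reads from the untranslated parts are divided by the coding length alone. RPL3L, a muscle form of RPL3, was lowest at 0.495 CPM per coding kilobase, against 628 for RPL3. RPS18 at 2.22 and RPS9 at 2.59 came next, although both encode core proteins of the small subunit. For RPS18, 94.6% of the counts of the gene and its pseudogenes together lay in pseudogene rows, and the share was 91.8% for RPL17, 76.8% for RPL36A and 51.6% for RPS10. Reads that fit a gene and its copies can be split either way in the deposited counts, so the values of these 4 members are uncertain. RPL31 had 41.5% of its counts there. RPS9, with a mean count of 27.8, was thinly counted, and the reason was not tested.

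After the ATF6 siRNA, most ribosomal protein mRNAs stood slightly higher than with the control siRNA, and a handful fell clearly. Of the 84 members, 41 rose, 8 fell and 35 did not pass (edgeR, Benjamini-Hochberg adjusted p under 0.05 over all 17823 genes). Over all tested genes 16.1% rose and 15.3% fell. Ribosomal protein mRNAs are abundant, and of the tested genes averaging 100 CPM or more 36.9% rose and 28.3% fell, beside 38 that rose and 7 that fell of the 70 members at that level. The median change was 0.07 on the log2 scale (1.05-fold) over the members and -0.00031 over all tested genes. In 40 members every siATF6 library lay above every siCtrl library and in 8 every one lay below, beside 21.1% and 20.2% of all tested genes and 40.5% and 30.5% of those of at least 100 CPM. Both subunits showed this. Of the large-subunit genes 28 rose and 6 fell of 52, with a median of 0.07, and of the small-subunit genes 13 rose and 2 fell of 32, with a median of 0.06. Of the 49 calls, 30 held with each of the 12 libraries left out in turn. Other measures separated these groups too: counts in mitochondrially encoded protein genes made up 6.30% to 6.66% in siATF6 and 5.72% to 6.17% in siCtrl, and the 5 epithelial markers summed to 445 to 472 CPM in siATF6 and 504 to 525 CPM in siCtrl. Their part in the result was not tested.

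RPL23, a large-subunit protein at the interface between the subunits that can also bind MDM2, fell furthest (ENSG00000125691, chr17:38847865-38853843, minus strand). It had 178, 184 and 175 CPM in siATF6, against 338, 324 and 331 CPM in siCtrl. It had 357, 353 and 358 CPM in Ceapin, against 352, 364 and 371 CPM in DMSO. The siATF6 libraries lay far below the other 9, which lay close together. The log2 fold change for siATF6 over siCtrl was -0.89 (SE 0.0256, adjusted p = 2.0e-23), or 1.85-fold lower.

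RPS27, a zinc-finger protein of the small subunit, fell nearly as far (ENSG00000177954, chr1:153990755-153992155, plus strand). It had 485, 473 and 461 CPM in siATF6, against 862, 816 and 838 CPM in siCtrl. It had 1026, 1042 and 1061 CPM in Ceapin, against 1098, 1106 and 1032 CPM in DMSO. Again the siATF6 libraries were the lowest by a wide gap, and the Ceapin and DMSO libraries overlapped. The log2 fold change for siATF6 over siCtrl was -0.83 (SE 0.0255, adjusted p = 9.3e-23), or 1.77-fold lower. Its paralog RPS27L did not pass, at 33.03 ± 2.88 CPM in siATF6 and 33.6 ± 1.66 CPM in siCtrl (log2 fold change -0.02, adjusted p = 0.80).

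RPL35A, a large-subunit protein mutated in some families with Diamond-Blackfan anaemia, had 219, 227 and 219.6 CPM in siATF6, against 295, 275 and 285 CPM in siCtrl (ENSG00000182899, chr3:197949980-197956610, plus strand). The groups did not overlap, and the log2 fold change was -0.36 (SE 0.0253, adjusted p = 2.1e-13), or 1.28-fold lower. RPL32, another large-subunit protein, had 304, 306 and 304 CPM in siATF6, against 357, 339 and 334 CPM in siCtrl, with a log2 fold change of -0.17 (SE 0.0249, adjusted p = 9.2e-07). Its siATF6 libraries were almost identical and below every siCtrl library.

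The other 4 members that fell did so by small amounts or on few reads. RPL4, which lines part of the peptide exit tunnel, had 1045, 1037 and 1027 CPM in siATF6, against 1110.2, 1081 and 1102 CPM in siCtrl (log2 fold change -0.08, SE 0.0196, adjusted p = 0.0011). RPL34 averaged 98.6 ± 3.30 CPM in siATF6 and 106 ± 4.66 CPM in siCtrl (-0.11, adjusted p = 0.011). Leaving out siCtrl replicate 1 ended its call (adjusted p = 0.11), as did leaving out siATF6 replicate 2 (0.065). RPL15 averaged 500.2 ± 3.31 CPM in siATF6 and 522 ± 3.36 CPM in siCtrl (-0.06, adjusted p = 0.017), and its call ended without siCtrl replicate 3 (0.12) or siATF6 replicate 1 (0.085). RPS18, with a mean count of 18.7, had 0.793, 1.00 and 0.473 CPM in siATF6, against 1.00, 1.75 and 1.06 CPM in siCtrl (-0.76, adjusted p = 0.041). That call ended without siCtrl replicate 2, siATF6 replicate 1 or siATF6 replicate 3 (adjusted p up to 0.34), and with the pseudogene counts added the change was -0.05. The call of RPS18 therefore rests on single libraries and a small share of its reads.

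**Figure D2:**
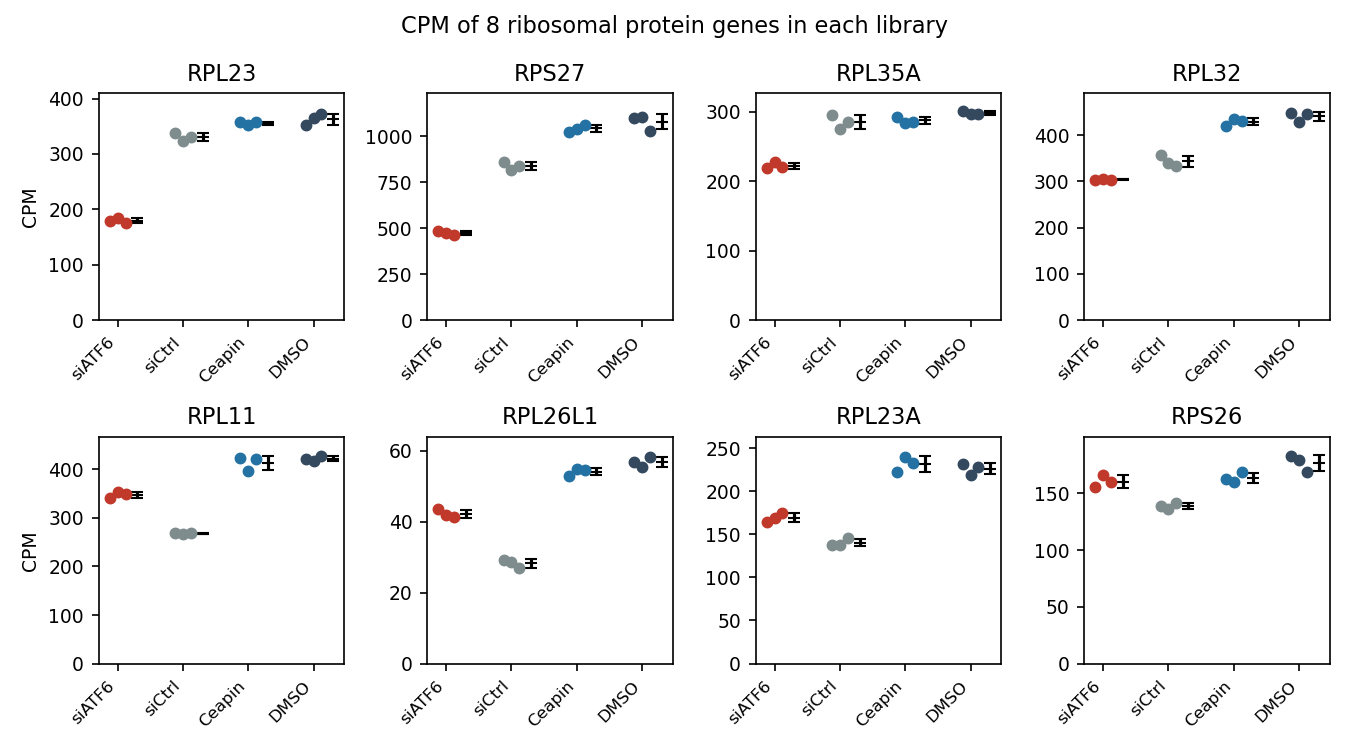
CPM in each library for 4 members that fell (RPL23, RPS27, RPL35A and RPL32, upper row) and 4 that rose (RPL11, RPL26L1, RPL23A and RPS26, lower row) in siATF6 against siCtrl. Points are the 3 libraries of a group and bars are mean ± SD; each axis starts at 0. RPL23 lies at 175 to 184 CPM in siATF6 and above 320 CPM elsewhere.

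Of the members that rose, RPL26L1 changed most. It encodes a near-identical copy of RPL26, which sits at the mouth of the exit tunnel (ENSG00000037241, chr5:172958729-172969771, plus strand). RPL26L1 had 43.6, 41.8 and 41.4 CPM in siATF6, against 29.3, 28.7 and 26.8 CPM in siCtrl. It had 53.0, 54.8 and 54.5 CPM in Ceapin, against 56.7, 55.4 and 58.1 CPM in DMSO. The siCtrl libraries were the lowest of all, and the siATF6 libraries lay between them and the compound arm. The log2 fold change for siATF6 over siCtrl was 0.58 (SE 0.0463, adjusted p = 5.2e-12), or 1.49-fold. RPL26, for which 37.5% of the counts of the gene and its copies lay in pseudogene rows, had 30.1 ± 1.48 CPM in siATF6 and 30.3 ± 1.13 CPM in siCtrl and did not pass (-0.01, adjusted p = 0.89).

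RPL11, a partner of RPL5 and 5S rRNA, had 341, 353 and 349 CPM in siATF6, against 269, 266 and 268 CPM in siCtrl (ENSG00000142676, chr1:23691742-23696835, plus strand). It had 423, 397 and 421 CPM in Ceapin, against 421, 418 and 427 CPM in DMSO. The siATF6 libraries were all above the siCtrl libraries and all below the compound arm. The log2 fold change for siATF6 over siCtrl was 0.38 (SE 0.0243, adjusted p = 2.7e-14), or 1.30-fold. RPL5 rose by less, to 429, 433 and 414 CPM in siATF6, against 414, 404 and 397 CPM in siCtrl (0.07, adjusted p = 0.012), and its call ended without siATF6 replicate 2 (adjusted p = 0.10). MDM2, their p53-regulating partner, fell to 98.2 ± 2.39 CPM in siATF6, against 122 ± 2.09 CPM in siCtrl (-0.31, SE 0.0292, adjusted p = 1.7e-10).

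RPL23A, the docking site for the signal recognition particle at the exit tunnel, had 165, 169 and 175 CPM in siATF6, against 138, 138 and 146 CPM in siCtrl (0.27, SE 0.0315, adjusted p = 1.8e-08). RPS26, which contacts mRNA upstream of the start codon, had 155, 166 and 159.6 CPM in siATF6, against 138, 136 and 142 CPM in siCtrl (0.21, SE 0.0310, adjusted p = 1.9e-06). In both genes the siATF6 libraries all lay above the siCtrl libraries. RPL22L1 averaged 75.2 ± 2.59 CPM in siATF6 and 66.3 ± 0.916 CPM in siCtrl (0.18, adjusted p = 0.00016). Its paralog RPL22 averaged 205 ± 5.13 CPM in siATF6 and 200.5 ± 9.05 CPM in siCtrl and did not pass (0.03, adjusted p = 0.46). RPL27 and RPL6, large-subunit proteins, rose by 0.17 each (adjusted p = 6.2e-08 and 1.9e-07).

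Values of further landmark members follow. RPS6, the substrate of S6 kinase, averaged 592 ± 14.0 CPM in siATF6 and 548 ± 22.3 CPM in siCtrl (0.11, adjusted p = 0.00057). RPSA, also known as a laminin receptor, rose by 0.11, RPS7, a further MDM2-binding protein, by 0.11, RPS3, at the mRNA entry site, by 0.10, and RPL13A, which can be released to silence mRNAs after interferon, by 0.15. The stalk proteins RPLP0 and RPLP2, which recruit elongation factors, rose by 0.06 and 0.08, and RPLP1 did not pass (-0.0027, adjusted p = 0.96). The calls of RPLP0 and RPLP2 ended without some library (adjusted p up to 0.16 and 0.18). RPS19, the gene most often mutated in Diamond-Blackfan anaemia, RPL10, needed in the last steps of large-subunit maturation, RPL38, tied to Hox mRNA translation in mouse, and the ubiquitin fusion RPS27A did not pass, with log2 fold changes of 0.04, 0.04, 0.05 and 0.04. Further paralogs with low or even changes were RPL36AL (0.12, adjusted p = 0.00020, beside -0.11 and no call for RPL36A), RPL39L (0.03, no call, beside a rise of 0.15 in RPL39), RPL7L1 (0.07, adjusted p = 0.020, beside -0.04 and no call for RPL7) and RPL3L (0.25, no call on a mean count of 11.2, beside a rise of 0.10 in RPL3).

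Most calls that ended without a library were small rises. Besides RPL5, RPLP0, RPLP2 and RPL7L1, the rises of RPL10A, RPL12, RPL18, RPL19, RPL21, RPL31, RPL41, RPS4X, RPS13, RPS21, RPS23 and RPS28, of 0.06 to 0.13, each ended without at least 1 library. The rise of RPL31 (0.09) also ended with its pseudogene counts added (0.01, adjusted p = 0.78). Leaving out siATF6 replicate 2 or siCtrl replicate 2 ended 12 calls each, more than any other library. The number of members that rose ran from 30 to 43 over these refits and the number that fell from 6 to 8.

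**Figure D3:**
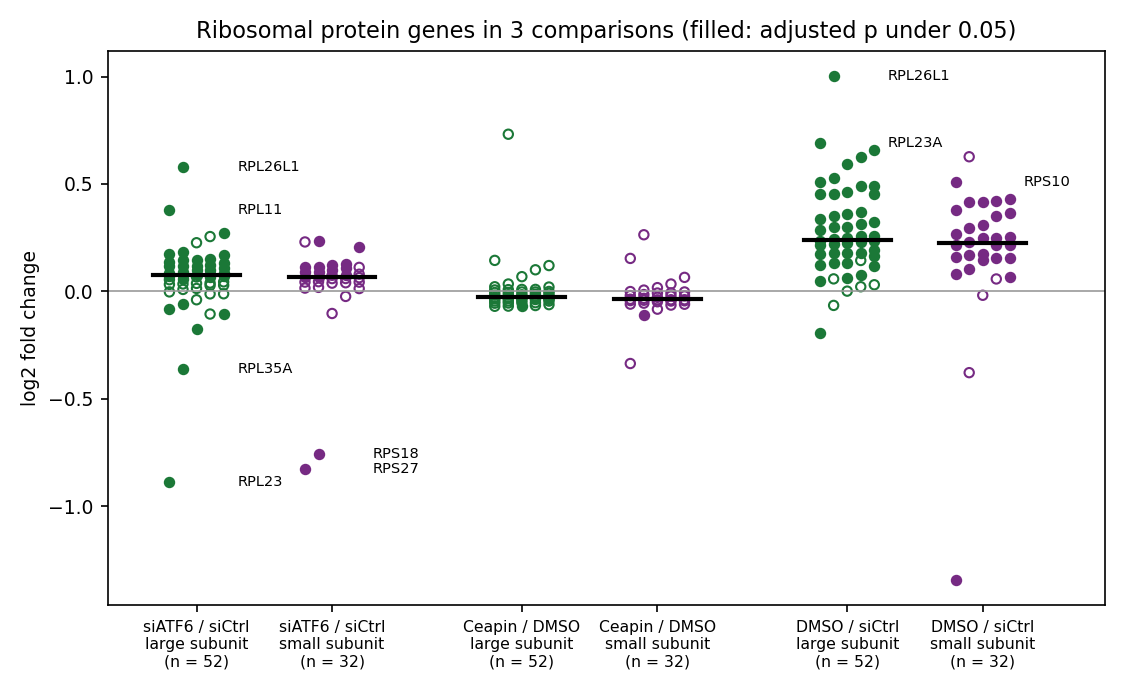
Log2 fold change of each member in 3 comparisons, split into large-subunit (52) and small-subunit (32) genes. Each circle is a gene, filled where it passed, and the bar is the median: 0.07 and 0.06 for siATF6 over siCtrl, -0.03 and -0.03 for Ceapin over DMSO, and 0.24 and 0.22 for DMSO over siCtrl.

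Members that held the sequence shown above were counted by how they moved. The match GAGTCAT stood in 5 of the 84 members, in the coding sequence in each: RPL23, RPL35A and RPL4, which fell, and RPL13 and RPS10, which did not pass (-0.01 and 0.23). A further 17 members held only a 6-base part (GAGTCA or AGTCAT), of which RPS27, RPL32 and RPL34 fell, 7 rose and 7 did not pass. Of the 62 members with neither, 34 rose and RPS18 and RPL15 fell. The full match stood in 3 of the 8 members that fell and 0 of the 41 that rose. The match or a part of it stood in 6 of the 8 that fell (75%) and 7 of the 41 that rose (17.1%), beside 79.3% and 53.6% of all tested genes that fell and rose, and 61.2% of all tested genes. Among all 13622 tested genes with a representative transcript, 28.3% of those that fell held the full match, against 6.71% of those that rose and 10.9% of those that did not pass. The searched sequence was 597 bases long at the median in members and 2642 in all tested genes, and longer sequence holds a short match more often. Among all tested genes the median was 3472.5 bases in those that fell and 2573 in those that rose. It was shorter still in those that did not pass. Among members it was 477.5 bases in those that fell and 675 in those that rose. The part of length in these shares was not tested. The sources used here do not give the siRNA's sequence, and pairing with these mRNAs was not tested.

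**Figure D4:**
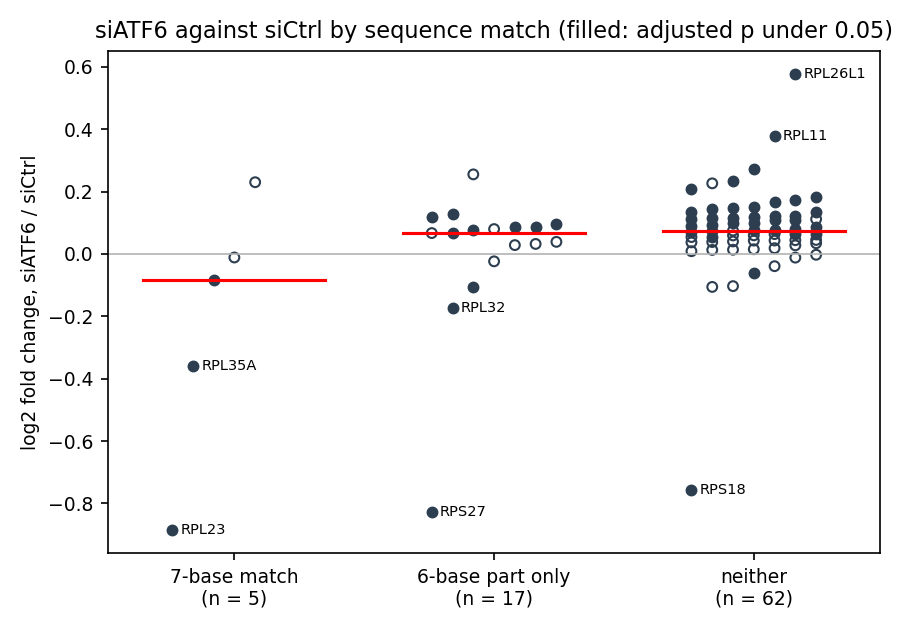
Log2 fold change for siATF6 over siCtrl of the 84 members by sequence match: the 7-base sequence (5 genes), a 6-base part only (17) or neither (62). Filled circles passed and red bars are medians, at -0.08, 0.07 and 0.07; RPL23, RPS27 and RPL35A lie among the matched genes and RPS18 among the others.

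Members with and without a TOP tract had similar medians after the siRNA, with no test between them. The median log2 fold change was 0.06 over the 47 members with the tract at an annotated start, 0.08 over the 8 with it nearby and 0.07 over the 12 with neither. Of the 47, 22 rose and 4 fell, among them RPS27 and RPL35A. Of the 12 with neither, 6 rose, among them RPL26L1, RPS26, RPL27 and RPL6, and RPL15 fell.

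With Ceapin-A7 the ribosomal protein mRNAs stayed close to the solvent control. Of the 84 members 0 rose and 2 fell, beside 2.21% and 2.41% of all tested genes, and beside 6.23% and 9.45% of those with at least 100 CPM. At an unadjusted p under 0.05 there were 16 members. DESeq2 called 4 lower and 0 higher, and limma-voom 5 lower and 0 higher. RPS26 had 162, 160.4 and 168.6 CPM in Ceapin, against 183, 179 and 168.9 CPM in DMSO (log2 fold change -0.11, SE 0.0301, adjusted p = 0.022). All Ceapin libraries were lower, though Ceapin replicate 3 lay just under DMSO replicate 3. Its call ended without Ceapin replicate 1 or 2 or DMSO replicate 1 or 2 (adjusted p from 0.088 to 0.16). RPL15 had 559.6, 563 and 554 CPM in Ceapin, against 585, 590.1 and 581 CPM in DMSO (-0.07, SE 0.0194, adjusted p = 0.041). These groups did not overlap, yet the call ended without any 1 of 9 libraries, all 6 of the comparison among them (adjusted p from 0.054 to 0.15).

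The members leaned the same small way. The log2 fold change for Ceapin over DMSO was below 0 in 66 of 84, with medians of -0.03 in both subunits and -0.0013 over all tested genes. Genes of at least 100 CPM also lay below 0 at the median (-0.02). In 17 members every Ceapin library lay below every DMSO library and in 3 above, beside 10.8% and 9.81% of all tested genes and 26.9% and 12.8% of those of at least 100 CPM. RPL27A, whose call narrowly failed (-0.07, adjusted p = 0.073), RPS7 (-0.06, 0.18) and RPS6 (-0.04, 0.40) were among the 17, and RPL22L1 (0.10, 0.15), RPL26 (0.12, 0.20) and RPL3L (0.73, 0.24) were the 3. RPL23 (-0.03, adjusted p = 0.65), RPS27 (-0.05, 0.33), RPL11 (-0.03, 0.63) and RPL26L1 (-0.07, 0.41), which moved most after the siRNA, did not pass here.

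**Figure D5:**
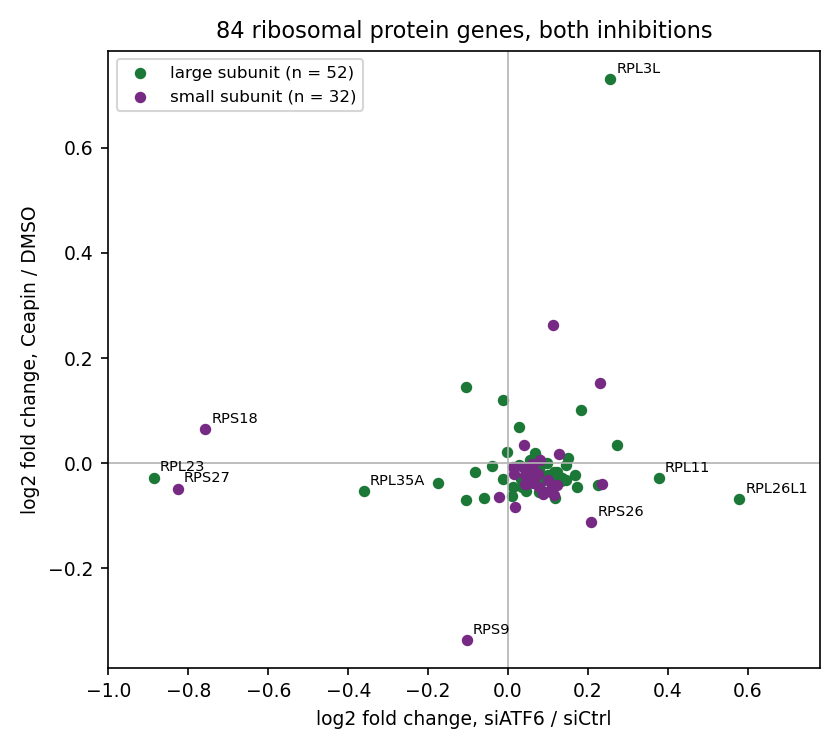
Log2 fold change of each of the 84 members for siATF6 over siCtrl (horizontal) and for Ceapin over DMSO (vertical), coloured by subunit. Most points lie right of 0 and just below 0; the outlying RPL3L, RPS9 and RPS18 are genes with low counts.

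The effects of siRNA and compound were set against each other in the same fit. The siATF6 effect was higher than the Ceapin effect in 37 members and lower in 4, beside 12.3% and 11.1% of all tested genes, and beside 33.5% and 21.7% of those of at least 100 CPM. The differences in log2 fold change were largest for RPL26L1 (0.65, SE 0.0606, adjusted p = 3.8e-10), RPL11 (0.41, SE 0.0336, adjusted p = 2.3e-11) and RPS26 (0.32, SE 0.0432, adjusted p = 5.6e-07). RPL23A, RPL27, RPL6 and RPL27A stood at 0.24 to 0.18. On the other side stood RPL23 (-0.86, SE 0.0350, adjusted p = 4.6e-19), RPS27 (-0.78, SE 0.0352, adjusted p = 6.9e-18), RPL35A (-0.31, SE 0.0354, adjusted p = 2.8e-08) and RPL32 (-0.14, SE 0.0344, adjusted p = 0.0031). Of these 41 calls 26 held without each library in turn, those named here among them. For RPL15, which fell in both comparisons, the difference did not pass (0.01, adjusted p = 0.91). In all, 55 members were above 0 after the siRNA and below 0 after Ceapin-A7, 14 were above 0 in both, 11 below 0 in both and 4 the other way round.

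The largest contrast among ribosomal protein genes lay between the control groups. In DMSO, 72 members were higher and 2 lower than in siCtrl, beside 31.2% and 30.7% of all tested genes and 40.2% and 47.6% of those of at least 100 CPM. In 68 members every DMSO library lay above and in 2 below every siCtrl library, beside 33% and 32.5% of all tested genes and 40.1% and 47.9% of those of at least 100 CPM. The medians were 0.24 over large-subunit and 0.22 over small-subunit genes, against 0.01 over all tested genes. Of the called members RPL26L1 led (1.00, SE 0.0442, adjusted p = 2.2e-19), followed by RPL23A (0.69), RPL11 (0.66), RPL27A (0.63), RPL12, at the base of the stalk (0.59), and RPL19 (0.53). RPS10 and RPL17 stood 0.51 higher each, but with pseudogene counts added RPS10 reached 0.12 and RPL17 0.59. RPL39L was lower in DMSO (23.6 ± 1.11 CPM in DMSO and 27.0 ± 0.645 CPM in siCtrl, -0.19, adjusted p = 0.0026).

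Not every member took part. RPL5 had 405 ± 4.38 CPM in DMSO and 405 ± 8.48 CPM in siCtrl (0.00086, adjusted p = 0.98), RPS27A 421 ± 10.9 CPM in DMSO and 427 ± 8.33 CPM in siCtrl (-0.02, adjusted p = 0.57), and RPL34 did not pass either (0.02, adjusted p = 0.59). The calls of RPLP0, RPL35A, RPLP1, RPS14, RPS12 and RPL36A, of 0.05 to 0.23, ended without some library. By the treatment text, DMSO cells had 12 h of solvent and siCtrl cells 24 h of culture after transfection, and these cannot be told apart. The summed epithelial markers also differed, at 1367 to 1421 CPM in DMSO and 504 to 525 CPM in siCtrl, as did the share of counts in the mitochondrially encoded protein genes, at 8.69 ± 0.356% in DMSO and 6.02 ± 0.256% in siCtrl. Their part in the result was not tested.

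Because siATF6 and DMSO were both compared with siCtrl, these comparisons are not independent, and the levels are given side by side. In 35 members (41.7%) all 3 siCtrl libraries lay below the other 9, beside 10.5% of all tested genes. They include RPL11, RPL26L1, RPL23A, RPS26, RPS6 and RPSA. In 7 members all 3 siATF6 libraries lay below the other 9, or 8.33%, near the 8.27% of all tested genes: RPL23, RPS27, RPL35A, RPL32, RPL34, RPL4 and RPL15. In 14 members, RPL15, RPS26 and RPS6 among them, all 3 DMSO libraries lay above the other 9, beside 4.54% of all tested genes. RPL22L1 and RPL5 were the 2 members whose siATF6 libraries lay above all others, beside 8.73% of all tested genes. These shares were not counted among genes of at least 100 CPM, which separated more often than all tested genes in the comparisons above.

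Genes that build ribosomes were counted beside all tested genes, of which 16.1% rose and 15.3% fell after the ATF6 siRNA. Among tested genes of at least 100 CPM 36.9% rose and 28.3% fell, and the lists hold genes above and below that level. Of 34 ribosome assembly factors 24 rose, 0 fell and 10 did not pass, with a median log2 fold change of 0.15. NOLC1, a nucleolar phosphoprotein that carries small nucleolar RNPs, reached 422 ± 5.66 CPM in siATF6, against 199.6 ± 2.35 CPM in siCtrl (1.08, SE 0.0226, adjusted p = 3.6e-27). It averaged 373 ± 3.03 CPM in Ceapin and 369 ± 6.58 CPM in DMSO, so siCtrl was the lowest group. DKC1, the pseudouridine synthase of ribosomal RNA, rose by 0.40, PES1, of the large-subunit assembly complex PeBoW, by 0.47, and nucleolin (NCL) by 0.27. Of 14 genes of the RNA polymerase I machinery 8 rose and 0 fell (median 0.20), with the subunit POLR1B at 0.39 and the ribosomal DNA factor UBTF at 0.28. Of 9 chaperones and importers of ribosomal proteins 5 rose and IPO7, an importer, fell (-0.34). TSR2, the chaperone of RPS26, had 19.8 ± 1.39 CPM in siATF6 and 14.3 ± 0.679 CPM in siCtrl (0.47, SE 0.0694, adjusted p = 1.7e-06). The group means of DKC1, PES1, NCL, POLR1B, UBTF and TSR2 were also lowest in siCtrl, and that of IPO7 was highest there. In DMSO against siCtrl 19 of the 34 assembly factors were higher and 6 lower, beside 31.2% and 30.7% of all tested genes. Of the 14 RNA polymerase I genes 8 were higher and 3 lower, and of the 9 chaperones and importers 8 and 1. Both comparisons use siCtrl, so they are not independent.

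Other genes under TOP control and its regulators were counted beside the same shares. Of 21 other TOP mRNAs 11 rose and 1 fell (median 0.08), with NPM1, a nucleolar chaperone, at 0.23 and EEF2, the translocation factor of elongation, at 0.19. Of 18 genes of the mTORC1 and LARP1 control 7 rose and 3 fell (median 0.0026). LARP1 rose to 523 ± 12.4 CPM in siATF6, against 437 ± 6.02 CPM in siCtrl (0.26, SE 0.0212, adjusted p = 9.4e-12), and EIF4EBP2, a repressor of cap-dependent translation, fell (-0.72, SE 0.0259, adjusted p = 6.3e-21). Of 77 mitochondrial ribosomal protein genes 22 rose and 3 fell (median 0.07), with MRPS34 at 0.60 and MRPL18 at -0.46. Of 14 genes of ribosome quality control 7 rose and MDM2 fell, with UBE2O, a ligase for unassembled ribosomal proteins, at 0.39. FAU, whose ribosomal protein is made as a fusion with a ubiquitin-like protein, rose by 0.10, and RACK1, a scaffold on the small subunit, did not pass (0.01). Of the 4 groups, siCtrl had the lowest mean of NPM1, EEF2, LARP1, MRPS34 and FAU and the highest of EIF4EBP2. MRPL18 averaged lowest in siATF6 and UBE2O in Ceapin.

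With Ceapin-A7 2.21% of all tested genes rose and 2.41% fell, or 6.23% and 9.45% of those of at least 100 CPM. Of the 34 assembly factors 2 rose (WDR43 at 0.13 and NOP58 at 0.14). None of the RNA polymerase I genes and of the chaperones and importers of ribosomal proteins passed (edgeR). Of the 21 other TOP mRNAs 3 rose: the small nucleolar RNA hosts SNHG1 (0.18) and SNHG8 (0.35), and the elongation factor subunit EEF1D, at 17.99 ± 10.8 CPM in Ceapin and 10.7 ± 0.399 CPM in DMSO (0.74, adjusted p = 0.027). Of the 18 mTORC1 and LARP1 genes the mTORC1 inhibitors SESN2 (0.44, SE 0.0366, adjusted p = 2.2e-10) and DDIT4 (0.47, SE 0.0448, adjusted p = 3.3e-09) rose, and EIF4EBP2 (-0.16) and TSC1 (-0.12) fell. SESN2 averaged 85.8 ± 0.369 CPM in Ceapin and 63.5 ± 2.41 CPM in DMSO. Of the quality control genes EIF4E2 fell (-0.20, adjusted p = 0.0040), and of the mitochondrial ribosomal protein genes MRPS6 fell (-0.14, adjusted p = 0.037).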

How the data were processed

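RNA was sequenced in 12 libraries (4 groups of 3) with a stranded TruSeq kit, per the labels' protocols. The authors deposited 1 table of estimated counts per gene, already in whole numbers and not scaled for depth. Salmon and hg38 are named, per the submitters' processing notes; the Salmon version, the annotation release and the rounding step are not given in the sources used here. No gene has a 0 in any library, so genes unseen in a library are not in the table.

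Genes kept by filterByExpr (17823) were fitted with edgeR 4.0.16 (R 4.3.3), TMM scaling and 1 term per group, with 8 residual degrees of freedom. The quasi-likelihood F tests were two-sided, with Benjamini-Hochberg adjustment over all tested genes and a threshold of 0.05. CPM values are counts scaled by TMM to a common library size. Library totals ran from 17760878 to 19202632, and 5 members had fewer than 100 counts in some library. Intervals and SEs cover the spread between libraries and counting error, not differences between experiments. The scripts were tested on simulated data.

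Named genes were the 8 largest called rises and falls per comparison (at least 1 CPM), paralogs beside the member they are named after, the most and least abundant members, and landmarks of ribosome function. From each other list, the named genes were among the up to 4 with the smallest p in a comparison. A few members outside the rule, such as RPS14, were named where a count was broken down, after their values were seen. The members, lists and tests were chosen with earlier results of these data known. Alternatives were other scalings and filters, DESeq2 1.42.0, limma-voom (limma 3.58.1), the comparison's libraries alone, a replicate term, pseudogene counts added, and each library left out in turn. Some genes that the rule would name are not reported here. RPL10L fits the symbol rule but was not analysed here. Start sites come from RefSeq tables (GRCh38.p14), gene positions and transcripts from GENCODE v29 (GRCh38).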

Additional observations from a re-analysis of the deposited data

Results flagged for a closer look

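The siATF6 effect (siATF6 over siCtrl) and the Ceapin effect (Ceapin over DMSO) differed in 41 ribosomal protein genes, by a test of the difference in log2 fold change in the same edgeR fit. In 37 the siATF6 effect was higher and in 4 it was lower, beside 12.3% and 11.1% of all tested genes. Among tested genes of at least 100 CPM the shares were 33.5% and 21.7%. The differences were 0.65 for RPL26L1, 0.41 for RPL11, 0.32 for RPS26, 0.24 for RPL23A, 0.22 for RPL27, 0.19 for RPL6 and 0.18 for RPL27A. They were -0.86 for RPL23, -0.78 for RPS27, -0.31 for RPL35A and -0.14 for RPL32. By the treatment text, the arms also differ in schedule, with 24 h after transfection against 12 h of compound, which cannot be told apart from the agents.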

How the results depend on the processing

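The counts of called members kept their size in 3 of the 4 comparisons. Over the alternatives other than leaving out a library, 32 to 43 rose and 7 to 8 fell for siATF6 over siCtrl, 27 to 38 and 4 to 5 for the difference between the effects, and 66 to 72 and 2 to 3 for DMSO over siCtrl. Over the 12 refits without 1 library the same counts ran from 30 to 43 and 6 to 8, from 26 to 38 and 4 to 5, and from 67 to 72 and 2. For Ceapin over DMSO 0 members rose under each of these, but the 2 that fell became 1 with library totals as scaling, with a filter at 1 CPM in 3 libraries, with the comparison's libraries alone and with the replicate block, 3 with pseudogene counts added (RPL31 at -0.10, adjusted p = 0.019, as the third), 4 with DESeq2, 5 with limma-voom, and 0 to 2 without 1 library. The causes were not tested. The medians over large-subunit genes ran from 0.07 to 0.09 for siATF6 over siCtrl and from -0.03 to -0.01 for Ceapin over DMSO without 1 library, and over small-subunit genes from 0.06 to 0.08 and from -0.04 to -0.03.

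With pseudogene counts added, the large-subunit share was 1.88% in siATF6, 1.84% in siCtrl, 2.18% in Ceapin and 2.20% in DMSO, and the small-subunit share 1.08% in siATF6, 1.08% in siCtrl, 1.25% in Ceapin and 1.27% in DMSO. Over totals without mitochondrial genes the large-subunit share was 1.91% in siATF6, 1.86% in siCtrl, 2.28% in Ceapin and 2.30% in DMSO, and the small-subunit share 1.095% in siATF6, 1.08% in siCtrl, 1.28% in Ceapin and 1.30% in DMSO. Both changes follow from how the share is built. Of single-gene results, 1715 kept their call, 63 lost the call and 6 gained one under these alternatives, and 2017, 195 and 8 without 1 library. No called gene changed sign, while 17 values without a call did under these alternatives and 49 without 1 library.

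Samples with the same replicate number showed no clear shared deviation (correlations from -0.0289 to 0.0355), and not every sample correlated best with its own number. With 3 libraries per group, values this near 0 cannot exclude a shared culture or batch, so the replicate number was used only in an alternative. With the replicate block 40 members rose and 8 fell for siATF6 over siCtrl, 0 and 1 for Ceapin over DMSO, 35 and 4 for the difference, and 72 and 2 for DMSO over siCtrl.

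The comparison's libraries alone could not be used for the difference, which needs all 12. DESeq2 gave no adjusted p for RPS18. Low counts limit RPL3L, RPS18 and RPS9, whose mean counts were 11.2, 18.7 and 27.8, and reads shared with pseudogenes limit RPS18, RPL17, RPL36A, RPS10 and RPL31.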
